A study of Homo sapiens with 8 samples.

Results

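The genes described here are those of HLA and antigen presentation in the human melanoma cell line A2058 after treatment with TGFβ1. The set of 34 genes was chosen by symbol and holds the class I and class II HLA chains, their chaperones and transactivators, the proteins that cut peptides and load them, and the stress ligands MICA and MICB. A probe with a gene symbol was found for 33 of the 34, out of 20045 genes on the arrays. HLA-DQA1 had no named probe here and is not described further. RNA from 8 wells was measured on Illumina HT-12 arrays, 4 wells treated with TGFβ1 and 4 with vehicle. All 8 wells had been transfected with an empty plasmid, since they were the control arm of a larger experiment, and were then kept for a day in serum-free medium with TGFβ1 or vehicle. The methods name a pair of possible doses, and the sources used here do not tie a dose to an array. The wells shared a plating day and a passage number, so p-values here reflect only well-to-well spread.

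Class I molecules, a heavy chain paired with B2M, show peptides from inside the cell to CD8+ T cells. Those peptides are cut by proteasomes, whose catalytic subunits PSMB8, PSMB9 and PSMB10 replace the standard subunits after interferon-gamma, carried into the endoplasmic reticulum by TAP1 and TAP2, and fitted into class I by tapasin and its partners. Class II molecules show peptides from the endosomal route to CD4+ T cells, with HLA-DM exchanging the peptide in the groove. Melanoma cells, unlike most cells outside the immune system, can carry class II as well, and loss of class I or of its loading machinery is a known way for tumours to be missed by T cells. TGFβ1 is a cytokine known for damping immune responses.

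TGFβ1 lowered 5 of the 33 measured genes and raised 0 at an adjusted p under 0.05 in limma, with p-values adjusted over all 20045 genes. The 5 were TAP1, a subunit of the peptide transporter, HLA-DMA and HLA-DMB, the chains of the class II peptide exchanger, and PSMB9 and PSMB10, catalytic subunits of the immunoproteasome. They are 15.2% of the members, beside 2.67% of all genes that were lower and 3.03% that were higher. In these 5 genes each TGFβ1 well was below each vehicle well, which held for 5.07% of all genes. Each TGFβ1 well was above each vehicle well in 2 members, TAPBP and PDIA3, neither of which passed the test, beside 5.2% of all genes. The members' median change was −0.019 on the log2 scale, against −0.0013 over all genes. The mean of the 33 members lay between 0.0023 and 0.064 in the vehicle wells. In the TGFβ1 wells it lay between −0.047 and −0.018, without overlap. That mean includes the 5 lower genes and was not taken without them. In bulk RNA a change in a few cells and a smaller change in every cell cannot be told apart.

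The remaining 28 members had changes between −0.24 and 0.20 in log2 and adjusted p-values of 0.18 or more in limma. At an unadjusted p under 0.05, 3 of these 28 passed, where 15.6% of all genes passed in either direction. Over all members 7 were lower and 1 was higher, the 7 including every gene that passed the adjusted test. The 95% intervals of the 28 reached from −0.46 to 0.44, which is 1.37-fold lower to 1.35-fold higher. For these genes a change anywhere inside its own interval remains possible. For the array as a whole, the 5th percentile of the changes was −0.22 and the 95th was 0.21.

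**Figure D1:**
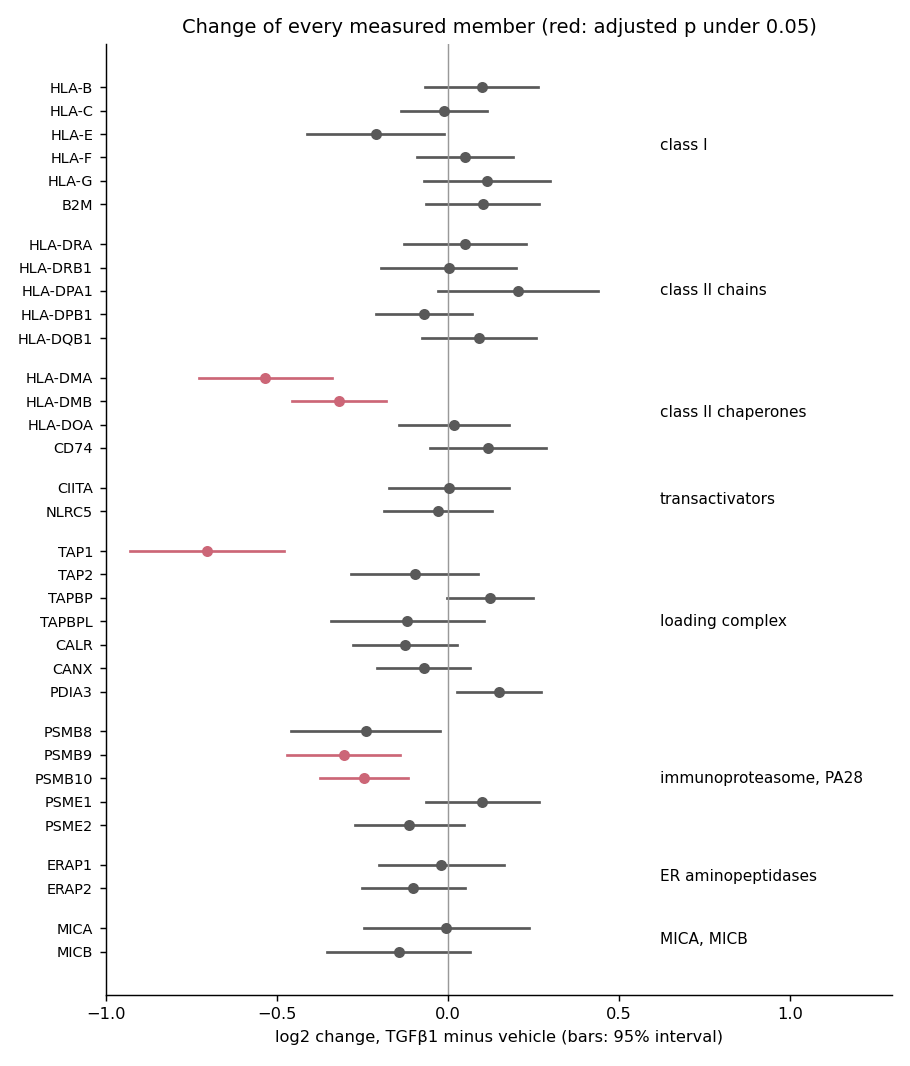
Log2 change, TGFβ1 minus vehicle, of each of the 33 measured members, ordered by role; points are differences between the means of 4 wells and bars are 95% intervals from limma. The 5 genes in red, HLA-DMA, HLA-DMB, TAP1, PSMB9 and PSMB10, passed the test and all lie below 0.

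The deposited values are log2 values centred on 0 for each gene over the 8 wells. A value therefore says how far a well lay above or below the gene's mean and carries no expression level, so neither detection nor the order of genes by abundance could be read. The signal that each probe had above background is likewise not kept. Medians of the 8 arrays lay between −0.0050 and −0.0015 and their SDs between 0.12 and 0.16. The largest SD belonged to TGFβ1 replicate 4.

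Among the class I genes, 0 of 6 passed the test in either direction. Their median change was 0.074 and 2 of the 6 were below 0, beside 10148 of all 20045 genes. HLA-E, a heavy chain with little variation between people that is read by NKG2 receptors on NK cells, had the largest change in size of the heavy chains. Its log2 values were −0.17, 0.19, 0.23 and 0.17 in vehicle replicates 1 to 4 and −0.17, −0.23, 0.077 and −0.10 in TGFβ1 replicates 1 to 4. Vehicle replicate 1 lay with the treated wells while the other vehicle wells were above all of them, and the groups overlapped. The change was −0.21 (SE 0.09, adjusted p = 0.28 in limma).

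B2M, the light chain that every class I molecule needs to reach the surface, had log2 values of −0.22, 0.017, −0.082 and 0.083 in vehicle and 0.090, 0.086, 0.12 and −0.090 in TGFβ1. The highest wells were treated ones but TGFβ1 replicate 4 was the second lowest of all, and the change was 0.10 (SE 0.08, adjusted p = 0.62 in limma). The classical heavy chains HLA-B and HLA-C changed by 0.099 (SE 0.08) and −0.011 (SE 0.06). HLA-F and HLA-G, the less widely expressed heavy chains, changed by 0.050 (SE 0.07) and 0.11 (SE 0.09). Groups overlapped in each of them. Class I heavy chains and the DR chains are close copies of each other and vary between people, and how far a probe for one of them also binds another was not tested.

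Among the class II genes, 0 of 5 measured chains passed the test and 2 of 4 chaperones were lower, beside 2.67% of all genes. The 2 were the chains of HLA-DM, and a difference between chains and chaperones was not tested. HLA-DMA had log2 values of 0.42, 0.27, 0.23 and 0.15 in vehicle and −0.31, −0.23, −0.49 and −0.037 in TGFβ1. All 4 treated wells lay below 0 and all 4 vehicle wells above it, and TGFβ1 replicate 4 lay closest to the vehicle wells. HLA-DMA fell by 0.53 (SE 0.09, adjusted p = 0.0024 in limma), which is 1.45-fold, with a 95% interval from −0.73 to −0.34.

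Its partner chain HLA-DMB had log2 values of 0.11, 0.27, 0.12 and 0.14 in vehicle and −0.12, −0.12, −0.12 and −0.27 in TGFβ1. The groups did not overlap, 3 of the treated wells were nearly the same, and TGFβ1 replicate 4 was the lowest. HLA-DMB fell by 0.32 (SE 0.06, adjusted p = 0.0082 in limma), or 1.25-fold. Both chains of the HLA-DM dimer were thus lower in all treated wells.

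The other class II chaperones had smaller changes of the opposite sign. HLA-DOA, a chain of HLA-DO, which restrains HLA-DM, changed by 0.018 (SE 0.07). CD74, the invariant chain that fills the class II groove until HLA-DM removes its last fragment, changed by 0.12 (SE 0.08, adjusted p = 0.57 in limma), with changes of 0.093, 0.046 and 0.21 on its 3 probes. Neither passed the test.

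HLA-DPA1, the alpha chain of HLA-DP, had the largest change in size among the class II chains. Its log2 values were −0.052, 0.077, −0.069 and −0.37 in vehicle and −0.19, 0.12, 0.18 and 0.30 in TGFβ1. Most treated wells were high, but TGFβ1 replicate 1 was below 3 of the vehicle wells, and the change was 0.20 (SE 0.11, adjusted p = 0.41 in limma). Its partner HLA-DPB1 changed by −0.069 (SE 0.06), HLA-DRA by 0.050 (SE 0.08), HLA-DRB1 by 0.0022 (SE 0.09) and HLA-DQB1 by 0.092 (SE 0.08). The median over the 9 class II genes was 0.018.

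The transactivators of these genes did not pass the test either. CIITA, the coactivator that class II transcription depends on, changed by 0.0023 (SE 0.08, 95% interval −0.17 to 0.18). NLRC5, its counterpart for class I, had log2 values of 0.089, 0.025, −0.027 and −0.029 in vehicle and −0.0045, −0.097, −0.13 and 0.18 in TGFβ1. The treated wells held both the lowest and the highest value, and the change was −0.029 (SE 0.07, adjusted p = 0.93 in limma).

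The genes of peptide processing and loading were lower in 3 of 14 and higher in 0, beside 2.67% and 3.03% of all genes. Changes were below 0 in 11 of the 14, beside 10148 of all 20045 genes. The median change of the 14 was −0.11. TAP1 had the largest change in size of all 33 members. Its log2 values were 0.36, 0.035, 0.55 and 0.47 in vehicle and −0.16, −0.32, −0.42 and −0.50 in TGFβ1. Every treated well was below 0 and every vehicle well above it, although vehicle replicate 2 was much lower than the other vehicle wells. TAP1 fell by 0.70 (SE 0.10, adjusted p = 0.00085 in limma), which is 1.63-fold, with a 95% interval from −0.93 to −0.48.

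TAP2, the other subunit of the transporter, changed by −0.097 (SE 0.09, 95% interval −0.28 to 0.088), and its probes gave −0.21 and 0.015. The intervals of TAP1 and TAP2 did not overlap, but the difference between the genes was not tested. Tapasin, the product of TAPBP, holds class I at the transporter. TAPBP had log2 values of −0.038, −0.081, −0.067 and −0.059 in vehicle and 0.097, 0.14, −0.027 and 0.036 in TGFβ1. All treated wells were above all vehicle wells by a small margin, with a change of 0.12 (SE 0.06, adjusted p = 0.34 in limma).

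PDIA3, the oxidoreductase that is bound to tapasin, had log2 values of −0.080, −0.083, −0.12 and −0.015 in vehicle and 0.074, 0.088, 0.12 and 0.018 in TGFβ1. The wells again did not overlap, and the change was 0.15 (SE 0.06, adjusted p = 0.18 in limma). The lectin chaperones CALR and CANX changed by −0.13 (SE 0.07) and −0.071 (SE 0.06), and the tapasin relative TAPBPL, a peptide editor, by −0.12 (SE 0.10). Within the loading complex, then, TAP1 alone passed the test out of 7 genes.

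Of the inducible proteasome genes, PSMB9 and PSMB10 were lower. PSMB9 had log2 values of 0.11, 0.085, 0.29 and 0.13 in vehicle and 0.019, −0.31, −0.12 and −0.20 in TGFβ1. TGFβ1 replicate 1 came close to the vehicle wells without reaching them. PSMB9 fell by 0.30 (SE 0.08, adjusted p = 0.031 in limma), or 1.24-fold, with changes of −0.22 and −0.39 on its probes. The call ended when any single well other than TGFβ1 replicate 1 was left out, with adjusted p-values up to 0.104.

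PSMB10 had log2 values of 0.19, 0.19, 0.041 and 0.072 in vehicle and −0.11, −0.11, −0.12 and −0.17 in TGFβ1. The treated wells lay close together and below every vehicle well. PSMB10 fell by 0.25 (SE 0.06, adjusted p = 0.025 in limma), or 1.19-fold. The call ended without any of 6 of the 8 wells, the exceptions being vehicle replicates 3 and 4, with adjusted p-values up to 0.0834, and the adjusted p was 0.0522 with the replicate number as a block.

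PSMB8, the third of the inducible subunits, had log2 values of −0.048, −0.10, 0.44 and 0.19 in vehicle and −0.097, −0.089, −0.080 and −0.22 in TGFβ1. Vehicle replicates 3 and 4 lay far above the treated wells and replicate 1 just above them, so the overlap of the groups rests on vehicle replicate 2. The change was −0.24 (SE 0.10, adjusted p = 0.25 in limma), nearly the size of that of PSMB10, and all 4 of its probes were below 0. The PA28 subunits PSME1 and PSME2, which open the proteasome's gate, changed by 0.10 (SE 0.08) and −0.11 (SE 0.07).

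ERAP1 and ERAP2 trim peptides in the endoplasmic reticulum to the length that fits class I. ERAP2 had log2 values of −0.078, −0.0027, 0.074 and 0.21 in vehicle and −0.012, −0.13, −0.067 and 0.0098 in TGFβ1. The groups overlapped, and the changes were −0.10 (SE 0.07) for ERAP2 and −0.019 (SE 0.08) for ERAP1. MICB, a stress-induced ligand of the NK receptor NKG2D, had log2 values of 0.051, 0.048, 0.26 and −0.069 in vehicle and 0.15, −0.17, 0.030 and −0.30 in TGFβ1. It changed by −0.14 (SE 0.10) and its relative MICA by −0.0038 (SE 0.11), both with overlapping groups.

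**Figure D2:**
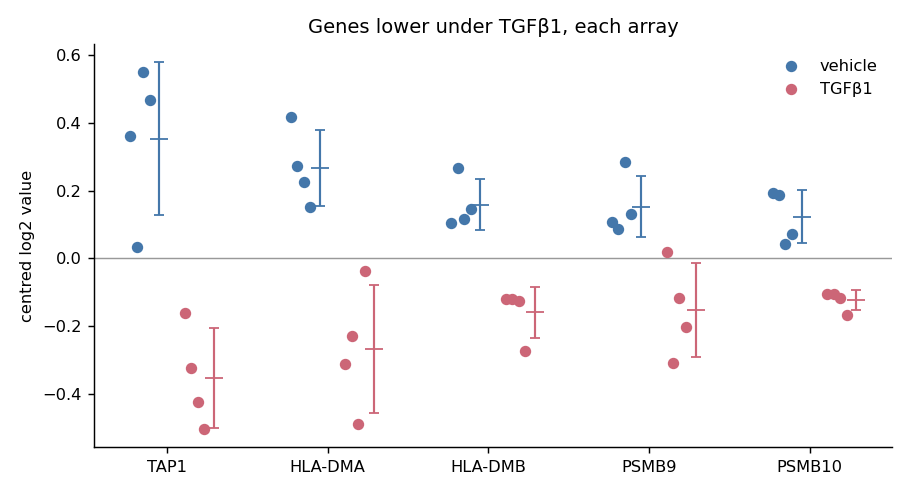
Centred log2 values of the 5 genes that passed the test, with vehicle wells in blue and TGFβ1 wells in red; each point is 1 of 8 arrays and the bars give the mean and SD of 4 wells. The groups do not overlap in any of the 5, and TAP1 has both the largest change, −0.70, and a vehicle well (0.035) far below the other vehicle wells.

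Set side by side, the classes had medians of 0.074 for class I with B2M, 0.018 for class II and −0.11 for processing and loading, beside −0.0013 for all genes. The mean of the 14 processing and loading genes lay between 0.019 and 0.11 in the vehicle wells and between −0.090 and −0.013 in the TGFβ1 wells, without overlap. That of the 6 class I genes lay between −0.11 and 0.037 in vehicle and between −0.023 and 0.090 in TGFβ1, and that of the 9 class II genes between −0.041 and 0.063 and between −0.064 and 0.040, both with overlap. Within class II, the mean of the 4 chaperones, HLA-DMA and HLA-DMB among them, lay between 0.057 and 0.12 in vehicle. In TGFβ1 it lay between −0.14 and −0.015, without overlap, while the mean of the 5 chains overlapped. The processing and loading genes include TAP1, PSMB9 and PSMB10, each without overlap on its own. The mean of that class was not taken without these genes. The medians and means are descriptions of the classes, and the differences between classes were not tested. Without vehicle replicate 2 the class II median was −0.038.

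**Figure D3:**
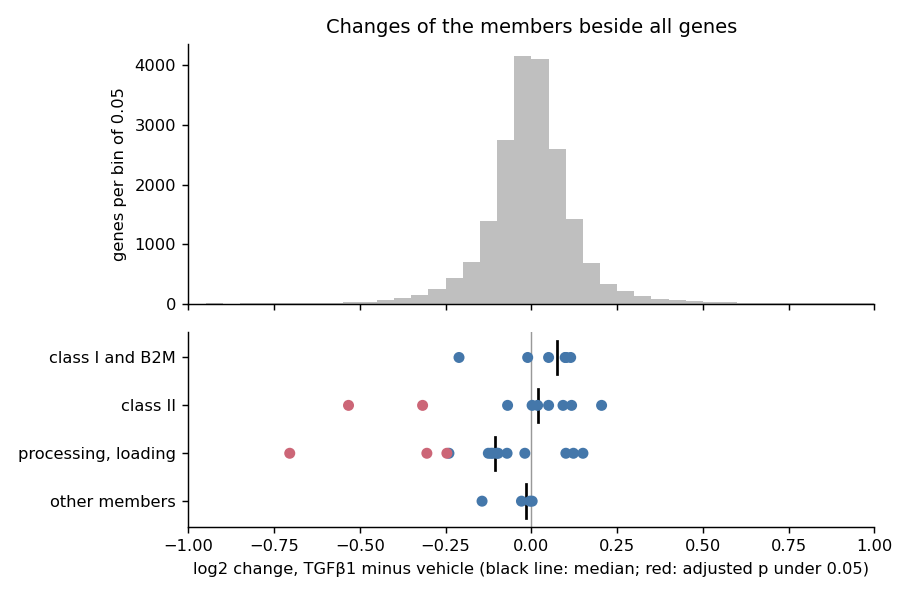
Top, the number of genes in bins of 0.05 of the log2 change for all 20045 genes, drawn between −1 and 1; bottom, the changes of the members by class on the same axis, red where the test was passed, with the class median as a black line. Class I and class II medians, 0.074 and 0.018, lie at or above the middle of all genes and that of processing and loading, −0.11, below it.

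The members with several probes numbered 13, and all of a gene's probes had the same sign in 8 of them. The other 5 were HLA-C, B2M, HLA-DRA, TAP2 and ERAP1, where the sign of the gene's change depends on the probe. In a fit of single probes, adjusted over all 47315 probes, 4 of the 50 member probes were lower and 0 were higher, beside 1.53% lower and 1.8% higher of all probes. The 4 were the probes of TAP1, HLA-DMA and HLA-DMB and the second probe of PSMB9 (−0.39, adjusted p = 0.013 in limma), while that of PSMB10 had an adjusted p of 0.086. TAP1, HLA-DMA, HLA-DMB and PSMB10 rest on a single probe each.

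**Figure D4:**
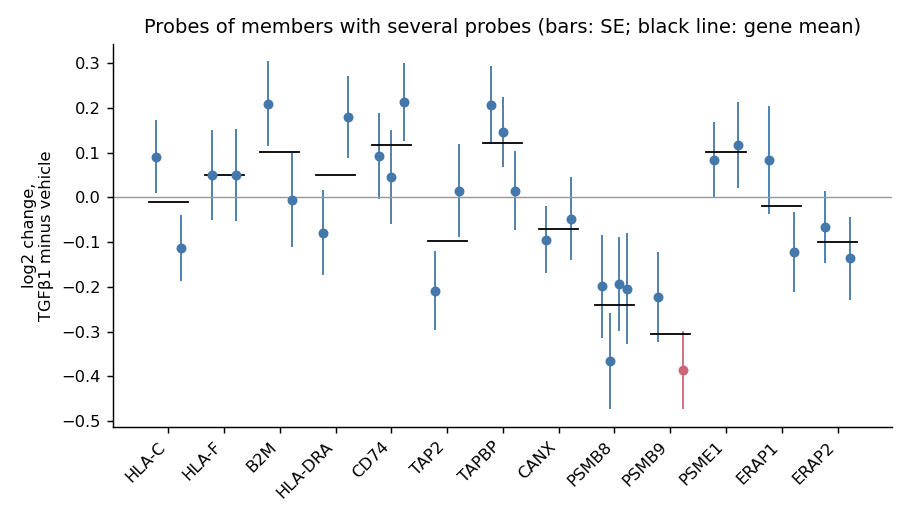
Log2 change, TGFβ1 minus vehicle, of each probe of the 13 members with several probes; points are differences of 4 against 4 wells, bars are SEs from limma and black lines the gene means. The 4 probes of PSMB8 lie between −0.37 and −0.19, whereas those of B2M, HLA-C, HLA-DRA, TAP2 and ERAP1 lie on both sides of 0.

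On chromosome 6, where 21 of the 34 members lie, 4 of the 5 genes that were lower are neighbours. In the gene order of RefSeq on GRCh38.p14, 30 protein-coding genes run from HLA-DRA to TAPBP, and 28 of them were measured. TAP1, PSMB9, HLA-DMB and HLA-DMA follow each other in that order, and they were the only genes of the 28 to pass the test. TAP2 and PSMB8, the genes just before TAP1, changed by −0.097 and −0.24 without passing it, and BRD2, which encodes a bromodomain protein and comes just after HLA-DMA, by −0.049 (SE 0.09). The 4 genes include both class I processing and class II loading functions. PSMB10, the fifth, is on chromosome 16.

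In the rest of the region, apart from these 4 genes and TAP2 and PSMB8, 0 of 22 measured genes passed the test. The largest changes in size among the 22 were those of WDR46, a nucleolar protein, at −0.40 (SE 0.12, adjusted p = 0.063 in limma), RING1, a Polycomb protein, at −0.22 (SE 0.07, adjusted p = 0.075 in limma) and HLA-DPA1 at 0.20. The run of 4 neighbours was noticed after the values were seen and no test was made of it. TAP1 and PSMB9 are known to be transcribed away from each other from a shared control region.

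**Figure D5:**
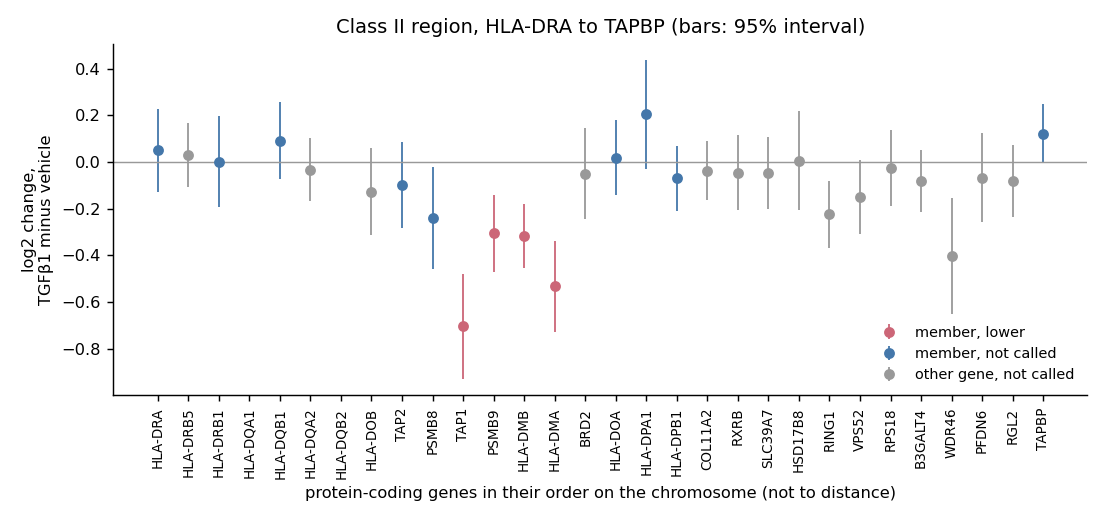
Log2 change, TGFβ1 minus vehicle, of the 28 measured protein-coding genes from HLA-DRA to TAPBP in their order on chromosome 6, equally spaced and without distances; bars are 95% intervals from limma, and genes without a point have no named probe. The 4 genes in red, TAP1, PSMB9, HLA-DMB and HLA-DMA, stand next to each other, with changes from −0.70 to −0.30.

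Promoters of the 5 lower genes are shown with that of B2M, a gene of the same pathway that did not pass the test. Each is the 150 bases before a RefSeq transcription start on GRCh38.p14, read 5′ to 3′ on the gene's strand. Capitals mark matches, on either strand, to GAAANNGAAA, the core of the interferon-stimulated response element (ISRE), or to CCAAT, a box that NF-Y binds and that ends the SXY module of HLA promoters.
TAP1, chr6:32853705-32853854, minus strand: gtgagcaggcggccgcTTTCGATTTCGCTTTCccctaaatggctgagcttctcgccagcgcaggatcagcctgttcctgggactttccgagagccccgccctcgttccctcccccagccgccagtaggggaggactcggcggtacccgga
PSMB9, chr6:32854042-32854191, plus strand: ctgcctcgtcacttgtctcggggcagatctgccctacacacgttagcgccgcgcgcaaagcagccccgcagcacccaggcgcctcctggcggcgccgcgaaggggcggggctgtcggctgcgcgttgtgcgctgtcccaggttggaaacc
PSMB10, chr16:67936851-67937000, minus strand: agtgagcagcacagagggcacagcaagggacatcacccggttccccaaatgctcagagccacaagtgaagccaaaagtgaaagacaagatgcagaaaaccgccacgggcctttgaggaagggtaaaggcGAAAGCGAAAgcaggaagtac
B2M, chr15:44711367-44711516, plus strand: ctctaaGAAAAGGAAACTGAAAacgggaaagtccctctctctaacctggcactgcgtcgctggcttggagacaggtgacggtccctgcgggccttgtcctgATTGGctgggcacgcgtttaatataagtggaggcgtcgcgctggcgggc
HLA-DMA, chr6:32953098-32953247, minus strand: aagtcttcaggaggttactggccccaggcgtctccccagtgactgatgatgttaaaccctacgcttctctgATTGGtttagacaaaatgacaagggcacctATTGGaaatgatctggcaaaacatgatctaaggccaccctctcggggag
HLA-DMB, chr6:32941029-32941178, minus strand: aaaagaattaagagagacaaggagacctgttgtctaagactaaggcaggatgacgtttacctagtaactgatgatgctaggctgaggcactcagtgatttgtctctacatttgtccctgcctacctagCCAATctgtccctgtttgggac
The ISRE matches in TAP1 and in B2M are each a pair of overlapping cores, and B2M has a CCAAT box, read on the other strand, nearer its start. TAP1 has another RefSeq start, whose 150 bases hold no match to either motif and are not shown. PSMB9 has no capitals, its only CCAAT box lying further upstream.

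The ISRE core was found in 27.5% of the members' 40 promoter windows of 300 bases, beside 3.57% of all 35116 RefSeq windows. CCAAT was found in 57.5%, beside 34.6%, and the gamma-activated site TTCNNNGAA in 7.5%, beside 7.66%. A window was held for 29 of the 34 members. Of the 11 measured members with an ISRE core 2 were lower, TAP1 and PSMB10, with changes of the 11 between −0.70 and 0.12 and a median of −0.097. Of the 17 without it 3 were lower, with a median of −0.011. PSMB9 is among these 3 because its window stops short of the TAP1 cores, which lie between the starts of both genes. TAPBP, PSME1 and B2M carry the core and had changes of 0.12, 0.10 and 0.10, none of which passed the test. For CCAAT, 4 of the 19 members with a box and 1 of the 9 without were lower. The windows of TAP1 and PSMB9 overlap, and the same box in the overlap was counted for both. A match is a description of the letters in the window.

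Genes upstream of this pathway moved in both directions. Of 9 measured genes of interferon-gamma signalling, 2 were higher and 1 was lower. IFNGR1 and IFNGR2, the chains of the interferon-gamma receptor, changed by 0.40 (SE 0.07, adjusted p = 0.0020 in limma) and 0.44 (SE 0.07, adjusted p = 0.0010). IRF9, an interferon regulatory factor that binds ISREs, fell by 0.53 (SE 0.08, adjusted p = 0.0013). IRF1, which binds the TAP1 promoter after interferon-gamma, changed by 0.0040 (SE 0.08).

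IRF9 was at 0.31, 0.16, 0.36 and 0.23 in vehicle and −0.36, −0.17, −0.083 and −0.44 in TGFβ1. The groups did not overlap. Whether IRF9 takes part in the changes of the members was not tested. The RFX, NF-Y and CREB factors that bind HLA promoters passed the test in 0 of 7, with RFX5 at −0.17 as the largest change in size.

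The neighbouring steps of the pathway were counted in the same way. None of 6 constitutive proteasome counterparts passed, among them PSMB5, PSMB6 and PSMB7, the standard subunits that the inducible ones replace, with changes of −0.017, −0.029 and −0.049. Counts were also 0 of 6 for cytosolic and other trimming peptidases, 0 of 10 for endosomal proteases and other genes of the class II route, 0 of 9 for other ligands of NK receptors and 0 of 8 for other HLA loci and pseudogenes. PSME3, the third PA28 subunit, missed the threshold at −0.20 (SE 0.06, adjusted p = 0.059 in limma) with all treated wells below all vehicle wells. The probes of PSME3 changed by −0.29 (adjusted p = 0.049 in the limma fit of single probes, lower) and −0.11. HLA-H, a class I pseudogene, missed the threshold in the other direction at 0.30 (SE 0.09, adjusted p = 0.062 in limma). All its treated wells were above all vehicle wells, and its probes changed by 0.51 (adjusted p = 0.0037 in the limma fit of single probes) and 0.088.

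Among 10 class I-like molecules 1 was lower. This was MR1, which shows vitamin B metabolites to MAIT cells, and it fell by 0.26 (SE 0.07, adjusted p = 0.042 in limma). In the fit of single probes its only probe had an adjusted p of 0.091. Of 11 ligands that co-stimulate or inhibit T cells 1 was lower, TNFRSF14, a receptor for LIGHT and a ligand of BTLA, which fell by 0.78 (SE 0.08, adjusted p = 3.1e-05). CD274, which encodes PD-L1, changed by 0.037 (SE 0.06).

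Markers of other cell types and of the melanocyte lineage were followed beside these results. Of 7 measured melanocyte markers 3 were lower and 0 were higher, namely TYRP1, a pigment enzyme, at −0.80 (SE 0.10), and the lineage factors MITF at −0.39 (SE 0.07) and SOX10 at −0.35 (SE 0.07). The 3 probes of MITF changed by −0.12, −0.045 and −1.0, so its mean rests on the last of them. Their mean lay between 0.083 and 0.22 in vehicle and between −0.21 and −0.11 in TGFβ1. Of 14 leukocyte markers 0 were lower and 1 was higher, CSF1R, a receptor of macrophages, at 0.38 (SE 0.08, adjusted p = 0.012 in limma), and their mean lay between −0.059 and 0.014 in vehicle and between −0.0066 and 0.041 in TGFβ1. The part of either in the fall of the 5 members was not tested, and the levels of these markers cannot be read from centred values.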

How the data were processed

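Total RNA from each of the 8 wells was run on its own Illumina HT-12 array. Quantile normalisation and removal of control probes in BASE, the log2 step, and centring of genes and samples in MeV were all done by the authors before the table was deposited. Centring was checked, and probe means departed from 0 by no more than 1.6e-07. Levels, background and detection are not kept, so no filter on dim probes was possible. Groups were taken from the sample titles, which call the control wells untreated. Those wells are called vehicle here.

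Of 47315 probes, 30105 had 1 gene symbol, 8 had several and 17202 had none. Probes of a gene were averaged. Treated and vehicle wells were compared over all 20045 genes with limma 3.58.1 (lmFit, eBayes; R 4.3.3), without covariate, with Benjamini-Hochberg adjustment over all genes and a threshold of 0.05. The fit was tested on simulated data. Classes were described by counts and medians without a test. The members and lists were chosen with earlier results of these data known. Members were given their 8 values if they passed the test or had the largest change in size of their list, and TAPBP, PDIA3, PSMB8 and IRF9 were added after their values were seen. Genes of other lists were named where they passed, and further ones after their values were seen.

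Alternatives were SAM, quantile normalisation again, array medians, array weights, a threshold of 0.01, the replicate number as a block, other summaries of probes and leaving out each array in turn. The fit of single probes was added after seeing the data. Promoters and gene order came from RefSeq tables of GRCh38.p14, read with Python 3.11.15, pandas 2.3.3 and numpy 2.4.6, and figures were drawn with matplotlib 3.10.9. The number of arrays limits the precision.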

Additional observations from a re-analysis of the deposited data

Results flagged for a closer look

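Of 66 groups of 4 wells (33 members in each condition), 9 held a well far from the other wells of its group by Dixon's criterion, where chance gives about 1 in 20. TGFβ1 replicate 4 was that well in 6 of the 9. It was low for B2M (−0.090, nearest well 0.086), HLA-DMB (−0.27, nearest −0.12), TAPBPL (−0.20, nearest −0.022), CALR (−0.25, nearest −0.022) and PSMB8 (−0.22, nearest −0.097), and high for HLA-DRA (0.16, nearest −0.0083). This array also had the largest SD over all probes, 0.16, and the lowest weight, 0.67, when limma estimated array weights. TGFβ1 replicate 3 was low for CIITA (−0.20, nearest 0.060). Vehicle replicate 1 was low for HLA-E (−0.17, nearest 0.17), and vehicle replicate 3 was low for HLA-DRA (−0.27, nearest 0.048). Without vehicle replicate 1, HLA-E joined the genes that were lower.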

How the results depend on the processing

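TAP1, HLA-DMA and HLA-DMB stayed lower in all 17 alternatives, with adjusted p-values up to 0.0042, 0.010 and 0.032 in limma, except that SAM, which gives none, called them at its own threshold. The count of lower members was 5 in the main fit, 3 with SAM and 3 at an adjusted p under 0.01, which leave out PSMB9 and PSMB10, and 3 to 4 when a well was left out. It was 3 without vehicle replicate 2 or TGFβ1 replicate 2, 3 or 4. With the replicate block it was 4, as it was with the probe of largest SD and with single probes, each without PSMB10 (adjusted p = 0.0522, 0.0725 and 0.0859). The other 4 alternatives gave 5. The count of higher members was 0 in all. Same-numbered wells did not deviate together (r from −0.040 to 0.026 across genes), a measure that would miss pairing in a few genes. The sample titles pair these wells only by that number.

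When a well was left out the class I median ranged from 0.038 to 0.083, the class II median from −0.038 to 0.054 and that of processing and loading from −0.15 to −0.087. Over all genes, SAM called 294 lower and 462 higher and a threshold of 0.01 257 and 360, beside 535 and 608. The cause of these shifts was not tested.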
